A study of Mus musculus with 6 samples.

Results

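The antioxidant and glutathione genes were 67 protein-coding genes chosen by name from the 56748 genes of the deposited count table: the superoxide dismutases and catalase, the glutathione peroxidases, the peroxiredoxins with sulfiredoxin, the thioredoxin genes, the enzymes that make and recycle glutathione, the glutathione transferases, and *Nfe2l2*, *Nqo1* and the heme oxygenases. Their expression was compared between 3 Pontin cTG hearts and 3 WT hearts, each sequenced as 1 library. The Pontin cTG transgene is human Pontin cDNA with a flag tag, driven in cardiomyocytes by the αMHC promoter, and WT mice were littermates without it. All mice were males on a C57Bl/6 background, aged 10 weeks at the start, and for 14 days both genotypes received angiotensin II (Ang-II) from a mini-osmotic pump, at 1.5 mg/kg BW/day. No library without Ang-II was analysed here, so the values compare the genotypes under Ang-II and do not measure the effect of Ang-II itself.

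Superoxide, which leaks from the respiratory chain and is made by NADPH oxidases, is turned into hydrogen peroxide by superoxide dismutases, and catalase, glutathione peroxidases and peroxiredoxins then remove the peroxide. Glutathione peroxidases draw their electrons from glutathione and most peroxiredoxins from thioredoxin, and both carriers are recharged with NADPH by their reductases. The transcription factor NRF2, encoded by *Nfe2l2*, binds antioxidant response elements and drives many of these genes.

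Several members are known as selenoproteins, in which a UGA codon is read as selenocysteine at the active site instead of ending the protein. For each member the longest complete coding sequence in GENCODE M21 was read, and 7 of the 67 held such an in-frame TGA before the final stop codon. Codon numbers below hold for that sequence and not for every isoform of the gene. They are shown because they are the members that use selenium, with the TGA in capitals and 18 coding bases before it.
Gpx1, codon 47: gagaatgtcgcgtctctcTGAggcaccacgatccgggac
Gpx3, codon 73: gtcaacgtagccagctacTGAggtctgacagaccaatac
Gpx4, codon 129: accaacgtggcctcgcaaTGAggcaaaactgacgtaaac
Txnrd1, codon 612: atcctccagtctggctgcTGAggt
Txnrd2, codon 526: cctactgtgactggttgcTGAggc
Txnrd3, codon 614: attactcagaaaggctgcTGAggc
The seventh was *Gpx2*. In the 3 thioredoxin reductases the TGA was the codon before the last, and in the glutathione peroxidases it lay further inside the coding sequence.

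The antioxidant response element was searched for as its core, TGACNNNGC, on both strands of the RefSeq promoter windows (GRCm38.p6, 250 bases before to 50 after each gene's start). Of the 57 members with a promoter entry, 12 held the core (21.1%), against 3781 of 27025 promoters in all (14%). The matches upstream of the start are shown for 5 members that the results below describe, with the core or its reverse complement in capitals.
Gclm, chr3:122245413-122245441, plus strand: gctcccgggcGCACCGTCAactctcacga
Prdx1, chr4:116685456-116685484, plus strand: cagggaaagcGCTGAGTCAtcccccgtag
Txnrd1, chr10:82859104-82859132, plus strand: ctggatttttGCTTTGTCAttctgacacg
Sod1, chr16:90220696-90220724, plus strand: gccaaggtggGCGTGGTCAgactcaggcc
Nfe2l2, chr2:75704885-75704913, minus strand: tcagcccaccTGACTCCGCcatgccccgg
A match says only that the letters are present. The 10 members without an entry included *Hmox1*, *Gclc*, *Gsr* and *Prdx6*.

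Total counts ran from 12436822 to 13194038 in WT and from 14584102 to 16888124 in Pontin cTG libraries, so the smallest Pontin cTG library exceeded the largest WT library. The 67 members took between 0.441% and 0.518% of the counts. Pontin cTG replicate 2 stood apart from the other 5 libraries, with 50.9 on the first principal component (48.6% of the variance) against -23.1 to 16.2, and the markers of endothelial cells were all highest there (6 of 6). Cardiomyocyte markers were abundant in every library, at a sum of 786111 to 919187 normalised counts over 8 genes. Whether reads of the human transgene align to the mouse gene of Pontin, *Ruvbl1*, was not tested, and its normalised counts were 216 to 221 in WT hearts and 240 to 250 with the transgene. Hearts are mixed tissue, and in these data fewer cells of a type and less RNA per cell cannot be told apart.

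No member passed the test between the genotypes. Of the 67 members, 57 passed the filter on low counts, and 0 of these 57 passed an adjusted p of 0.05 (edgeR's quasi-likelihood test, Benjamini-Hochberg over all 13888 genes tested). Nor did any other gene, a background of 0% called, and the smallest adjusted p was 0.999. DESeq2 called 1 of 25633 genes (0.0039%) and limma-voom 3 of 13888 (0.0216%), and no member was among them. At an unadjusted p under 0.05 in edgeR there were 2 members (3.51%), against 285 genes in all (2.05%). They were *Prdx5*, with higher counts in Pontin cTG hearts (1.02% of all genes in that direction), and *Hmox1*, with lower counts (1.03%). At the same unadjusted limit DESeq2 gave 1 member (*Prdx5*), where 0.847% of all genes passed, and limma-voom 5, where 5.83% did.

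The members leaned towards higher values in Pontin cTG hearts, by little. Of the 57, 37 had a log2 fold change above 0 (64.9%), against 50.2% of all genes tested, and their median was 0.051, against 0.0013 over all genes. The count was 30 above and 27 below 0 when Pontin cTG replicate 3 was left out, and 33 above and 24 below with limma-voom. The median ran from 0.014 when WT replicate 2 was left out to 0.071 when Pontin cTG replicate 1 was. In 7 members (12.3%) the groups did not overlap, against 8.33% of all genes. In all 7 the Pontin cTG values were the higher ones, as in 4.7% of all genes, and in 0 members the lower ones, as in 3.63% of all genes. The 7 were *Gpx4*, *Gsto2*, *Txnl1*, *Prdx2*, *Prdx5*, *Sod1* and *Txn1*, and for each of them the exact permutation test gave p = 0.1, the smallest that 3 mice against 3 allow. By the median, the tested members were shorter than all genes tested, with or without overlap of the groups. The tested members other than the 7 had a median length of 2433 bases and the 7 of 2349, against 4318 over all genes tested, and across all 13888 genes the log2 fold change was lower in longer genes (Spearman's rho -0.31, and -0.20 over the 57 members, as descriptions of genes that share libraries). The part of length in the members' median was not tested.

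**Figure D1:**
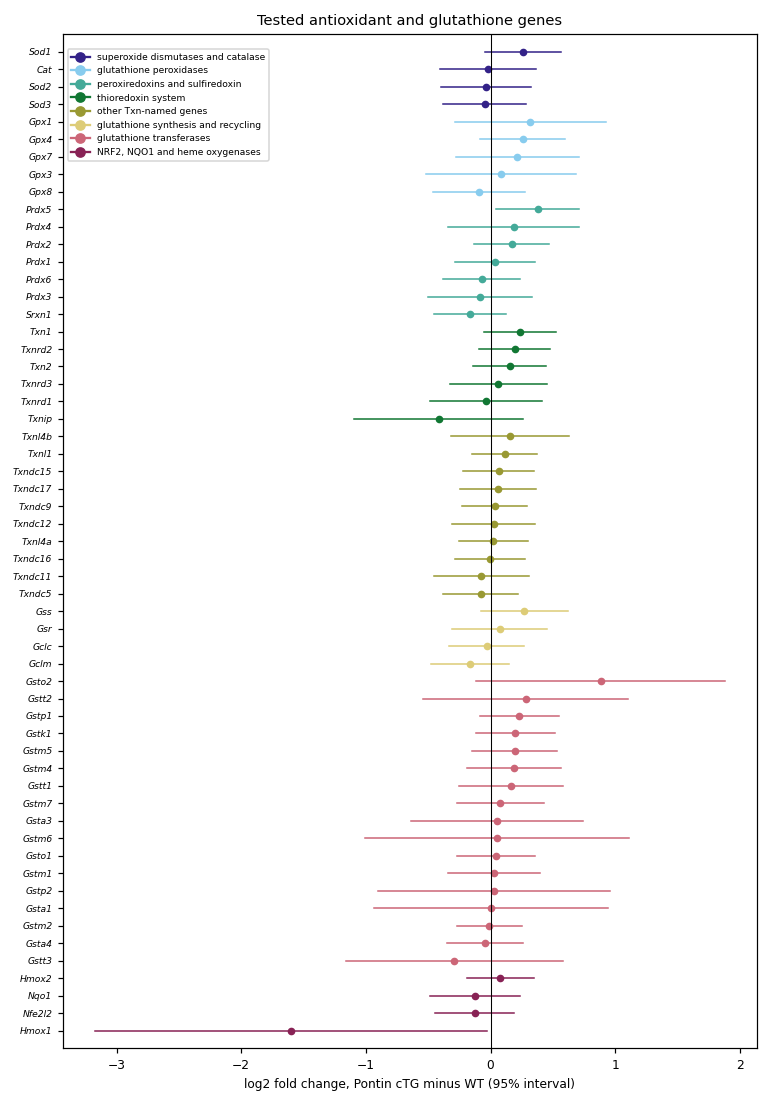
Log2 fold change (Pontin cTG minus WT, x axis) with its 95% interval for the 57 tested members, coloured by role. All intervals but those of *Prdx5* and *Hmox1* cover 0, and no member passed an adjusted p of 0.05.

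The members differed widely in level, given here as reads per kilobase scaled by library size (RPKM, with the deposited gene lengths), the scale on which genes can be set side by side. Above 100 RPKM were 4 members, the phospholipid hydroperoxidase *Gpx4* (219), the mitochondrial peroxiredoxin *Prdx3* (184), *Prdx5* (133) and the thioredoxin-binding protein *Txnip* (119). A further 25 lay between 10 and 100 RPKM and 24 between 1 and 10. Counts were concentrated in few genes, since *Sod2*, *Gpx4*, *Txnip*, *Prdx5*, *Prdx3*, *Prdx2* and *Cat* together took 50.5% of all member counts. At the other end, *Gpx2*, *Gpx5*, *Gpx6*, *Txndc8* and *Gstt4* had 0 counts in every library, and *Gstp3* (1), *Txndc2* (2), *Gstm3* (11), *Gsta5* (13) and *Gsta2* (21) had too few counts in total to be tested.

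Among the superoxide dismutases and catalase, the cytosolic copper-zinc enzyme *Sod1* separated the groups and the other 3 genes did not. *Sod1* (chromosome 16 from 90017642 to 90023217) had 2428, 2425 and 2405 normalised counts in WT, given here and below in the order of replicates 1 to 3, and 2596, 3181 and 2913 in Pontin cTG libraries. The WT libraries lay close together and all 3 Pontin cTG libraries lay above them. The log2 fold change was 0.26 (SE, the standard error, 0.14, 95% interval -0.048 to 0.57). The end of *Sod1* overlaps *Scaf4* on the other strand over 650 bases, 11.7% of its span.

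*Cat*, which encodes the peroxisomal enzyme catalase, had 3423, 3108 and 3085 normalised counts in WT and 3498, 2460 and 3509 in Pontin cTG libraries. *Sod2*, the manganese enzyme of the mitochondrial matrix, had 8087, 7737 and 8517 in WT and 8360, 6462 and 8883 in Pontin cTG libraries. In both genes Pontin cTG replicate 2 was the lowest of all libraries and the other 2 Pontin cTG libraries lay at or above the middle of the WT range. Extracellular *Sod3* had 541, 569 and 592 in WT and 567, 630 and 450 in Pontin cTG libraries, with Pontin cTG replicates at both ends. The log2 fold changes of *Cat*, *Sod2* and *Sod3* were -0.023, -0.038 and -0.047, each smaller than its SE (0.17, 0.16 and 0.15).

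Of the 8 glutathione peroxidases 5 could be tested, 4 with a log2 fold change above 0 and 1 below, with a median of 0.21. *Gpx4* (chromosome 10 from 79883000 to 79892273), which reduces lipid peroxides within membranes and guards against ferroptosis, had 4869, 4732 and 4907 normalised counts in WT and 4972, 6690 and 5678 in Pontin cTG libraries. The groups did not overlap, although Pontin cTG replicate 1 lay only just above the highest WT library. The log2 fold change was 0.26 (SE 0.15), and 0.14 without Pontin cTG replicate 2.

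Reads of *Gpx4* can be confused with a processed pseudogene, *Gpx4-ps2* (chromosome 10 from 45751384 to 45752191). Of the 100-base stretches of *Gpx4* transcripts, 40.8% occur without change in *Gpx4-ps2*, and around the selenocysteine codon shown above the pseudogene differs at 1 of 39 bases.
Gpx4-ps2: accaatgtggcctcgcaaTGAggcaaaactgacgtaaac
The table gave *Gpx4-ps2* 1047, 986 and 1030 normalised counts in WT and 977, 1404 and 1088 in Pontin cTG libraries. Both genes were highest in Pontin cTG replicate 2. The sum of the 2 genes, taken after their values had been seen, does not depend on how reads were divided between them. In WT it was 5857 ± 121 and with the transgene 6936 ± 1083 (SD, n = 3 each), a ratio of 1.18, and its groups did not overlap (exact permutation test, p = 0.1).

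*Gpx3*, the secreted plasma enzyme, had 1863, 2444 and 1841 normalised counts in WT and 1610, 3196 and 1702 in Pontin cTG libraries. Pontin cTG replicates held both the highest and the 2 lowest values, and the log2 fold change of 0.08 (SE 0.27) became -0.31 without Pontin cTG replicate 2. *Gpx1*, the cytosolic and mitochondrial enzyme, had 122, 128 and 95 in WT and 142, 195 and 93.6 in Pontin cTG libraries, a log2 fold change of 0.32 (SE 0.27) with overlapping groups. That value was 0.027 when Pontin cTG replicate 2 was left out and 0.55 when Pontin cTG replicate 3 was (unadjusted p of 0.038 in edgeR). Its level of 6.37 RPKM was low beside *Gpx4*, and 84% of its span is covered by an annotated gene on the other strand, ENSMUSG00000121068, so that reads assigned by position alone could be ambiguous there. Whether that lowered the count of *Gpx1* was not tested.

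The 6 peroxiredoxins and sulfiredoxin were all tested, 4 with a log2 fold change above 0 and 3 below, with a median of 0.033. *Prdx5* (chromosome 19 from 6884065 to 6887474), a peroxiredoxin of mitochondria, peroxisomes and cytosol, had 3489, 3086 and 3867 normalised counts in WT and 4121, 4735 and 4724 in Pontin cTG libraries. All 3 Pontin cTG libraries lay above all 3 WT libraries. The log2 fold change was 0.38 (SE 0.15, 95% interval 0.046 to 0.71), which is 1.3-fold, with an unadjusted p of 0.0302 in edgeR and an adjusted p of 0.999. It stayed above 0 whichever library was left out, from 0.30 (WT replicate 2 left out) to 0.47 (WT replicate 3 left out). Its unadjusted p in edgeR was 0.116 with WT replicate 2 left out, 0.0854 with WT replicate 1 left out and 0.0756 with Pontin cTG replicate 3 left out. The first 409 bases of *Prdx5* overlap *Trmt112* on the other strand, 12% of its span.

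*Prdx2*, an abundant cytosolic peroxiredoxin of heart and red cells, had 3598, 3333 and 3785 normalised counts in WT and 3798, 3999 and 4248 in Pontin cTG libraries. The groups did not overlap, but the lowest Pontin cTG and the highest WT library nearly touched, and the log2 fold change was 0.17 (SE 0.13). The summed counts of 5 erythroid genes, globins among them, were 13186, 15258 and 22338 in WT and 21216, 19437 and 11695 in Pontin cTG libraries. The part of blood in the *Prdx2* counts was not tested. *Prdx3*, the mitochondrial matrix peroxiredoxin, had 4196, 3682 and 3917 in WT and 3829, 2824 and 4485 in Pontin cTG libraries, with the highest and the lowest value both among Pontin cTG hearts. *Prdx6*, which reduces phospholipid peroxides with glutathione, had 2639, 2749 and 2402 in WT and 2312, 2688 and 2423 in Pontin cTG libraries, with a log2 fold change of -0.07 (SE 0.14). *Srxn1*, sulfiredoxin, which repairs overoxidised peroxiredoxins, had 361, 356 and 390 in WT and 361, 328 and 300 in Pontin cTG libraries. Its log2 fold change was -0.16 (SE 0.13), and Pontin cTG replicate 1 lay within the WT range. *Prdx1* and *Prdx4* had log2 fold changes of 0.033 and 0.19.

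**Figure D2:**
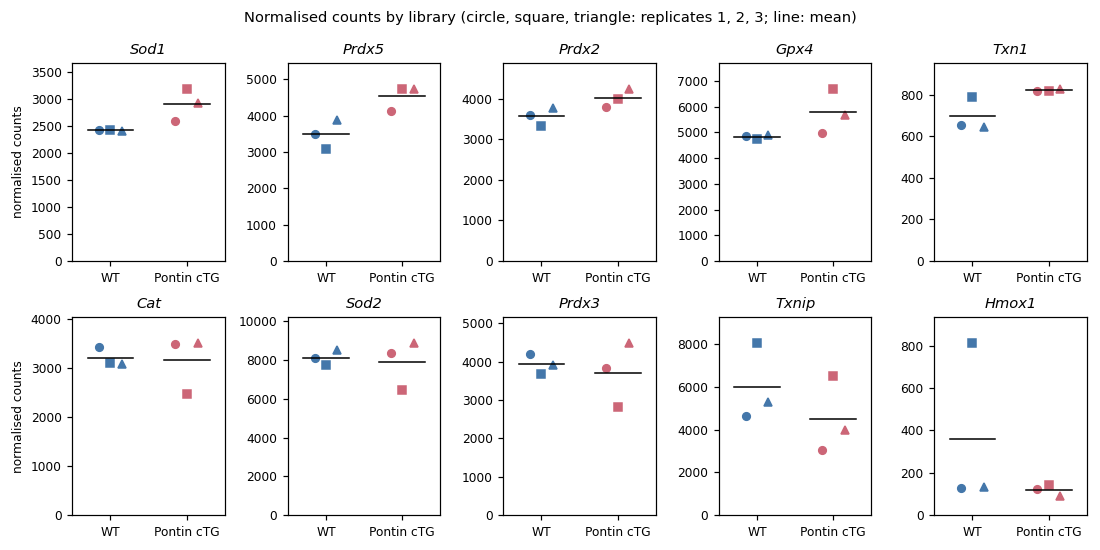
Normalised counts (y axis, from 0) of 10 members in each library, WT in blue and Pontin cTG in red, with circles, squares and triangles for replicates 1, 2 and 3 and a line at each group's mean. *Sod1*, *Prdx5*, *Prdx2*, *Gpx4* and *Txn1* show no overlap of the groups, *Cat*, *Sod2* and *Prdx3* are lowest in Pontin cTG replicate 2, and *Hmox1* is high in WT replicate 2 alone.

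In the thioredoxin system all 6 members were tested, 4 with a log2 fold change above 0 and 2 below. *Txn1* (chromosome 4 from 57943373 to 57956411), the cytosolic thioredoxin that reduces protein disulfides, had 656, 790 and 644 normalised counts in WT and 820, 817 and 829 in Pontin cTG libraries. The Pontin cTG libraries were almost equal and all lay above the WT libraries, of which replicate 2 was closest. The log2 fold change was 0.24 (SE 0.13, 95% interval -0.051 to 0.53). Mitochondrial *Txn2* had 2308, 2269 and 2482 in WT and 2659, 2474 and 2717 in Pontin cTG libraries, a log2 fold change of 0.15 (SE 0.13) with a single Pontin cTG library inside the WT range.

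*Txnip*, which binds and inhibits thioredoxin and is known to respond to glucose, had 4646, 8049 and 5292 normalised counts in WT and 3029, 6491 and 3968 in Pontin cTG libraries. The spread within each group was large: replicate 2 was the highest library of both genotypes, and the groups overlapped. The log2 fold change was -0.42 (SE 0.30), from -0.15 when WT replicate 2 was left out to -0.78 when Pontin cTG replicate 2 was. The whole span of *Txnip* lies within *Gm15441* on the other strand, so that reads counted without strand could be ambiguous where exons of the genes meet. Of the reductases, cytosolic *Txnrd1* had 1014, 882 and 1038 in WT and 1195, 682 and 983 in Pontin cTG libraries, and mitochondrial *Txnrd2* had 398, 368 and 442 in WT and 439, 445 and 495 in Pontin cTG libraries. *Txnrd1* had its highest and its lowest value in Pontin cTG hearts, whereas *Txnrd2* was higher in all but 1 comparison of a Pontin cTG with a WT library, at a log2 fold change of 0.19 (SE 0.13).

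The 12 other members with Txn in their names, several of them thioredoxin-fold proteins of the endoplasmic reticulum, gave small differences. Of the 10 tested, the log2 fold changes ran from -0.08 (*Txndc5*) to 0.16 (*Txnl4b*), with a median of 0.029. *Txndc17* had the highest RPKM of them (22) and 407, 375 and 426 normalised counts in WT against 387, 479 and 394 in Pontin cTG libraries. *Txnl1* had 965, 960 and 976 in WT and 1069, 1009 and 1063 in Pontin cTG libraries. Its groups did not overlap, but the difference was small, at a log2 fold change of 0.11 (SE 0.12).

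The 4 genes of glutathione synthesis and recycling were expressed at 2.1 to 7.85 RPKM (*Gss* to *Gsr*). *Gclc*, the catalytic subunit of glutamate-cysteine ligase and the rate-limiting step, had 244, 227 and 209 normalised counts in WT and 233, 211 and 223 in Pontin cTG libraries. Its log2 fold change of -0.029 (95% interval -0.33 to 0.27) bounds a change in either direction. The modifier subunit *Gclm*, an NRF2 target with the response element core shown above, had 380, 365 and 402 in WT and 385, 295 and 343 in Pontin cTG libraries, a log2 fold change of -0.17 (SE 0.14). Of these 2 subunits neither separated the groups.

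Glutathione synthetase, *Gss*, had 149, 150 and 178 normalised counts in WT and 172, 211 and 191 in Pontin cTG libraries, a log2 fold change of 0.27 (SE 0.15). WT replicate 3 lay above Pontin cTG replicate 1, and 76.1% of the span of *Gss* overlaps *Acss2* on the other strand. Glutathione reductase, *Gsr*, which restores glutathione with NADPH, had 257, 319 and 315 in WT and 330, 250 and 357 in Pontin cTG libraries, with the extremes both among Pontin cTG hearts.

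Of the 22 glutathione transferases, which couple glutathione to electrophiles, 17 were tested, 14 with a log2 fold change above 0 and 3 below, with a median of 0.053. The most abundant per length was *Gstm1* at 88.3 RPKM, with 1901, 1653 and 1882 normalised counts in WT and 1825, 1526 and 2202 in Pontin cTG libraries. Replicate 2 was the lowest library of both genotypes and the log2 fold change was 0.03 (SE 0.16). The largest log2 fold change of any member was that of *Gsto2*, 0.88 (SE 0.44), and it rested on few reads: 8.81, 11.2 and 4.47 normalised counts in WT and 12.7, 16.3 and 16.5 in Pontin cTG libraries, 73 counts in all. *Gsto2* also lies wholly within *Cfap43* on the other strand. *Gstt3*, the lowest of the transferases, had 42.9, 44.9 and 30.2 in WT and 19.5, 49.7 and 26.9 in Pontin cTG libraries, a log2 fold change of -0.29 (SE 0.39). This was -0.029 when Pontin cTG replicate 1 was left out and -0.75 when replicate 2 was (unadjusted p of 0.0484 in edgeR). *Gm20441* covers 93.7% of the span of *Gstt3* on the same strand and shares 18.1% of its 100-base stretches, so its counts are uncertain.

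The pi class transferases share sequence, and 38.4% of the 100-base stretches of *Gstp1* occur in *Gstp2*. Together with the pseudogene *Gstp-ps* their sum was 912 ± 103 in WT and 1071 ± 86.9 with the transgene (SD, n = 3 each), a ratio of 1.17 with overlapping groups (exact permutation test, p = 0.2). *Gsta1* shared 81.8% of its stretches with other genes, so its value is uncertain, and in 48 of the 67 members no stretch was shared.

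*Nfe2l2* itself had 948, 1063 and 836 normalised counts in WT and 946, 867 and 794 in Pontin cTG libraries, with overlapping groups and a log2 fold change of -0.13 (SE 0.14). Its target *Nqo1*, a quinone reductase, had 917, 817 and 691 in WT and 715, 649 and 860 in Pontin cTG libraries, at -0.12 (SE 0.16). The constitutive heme oxygenase *Hmox2* had a log2 fold change of 0.078. Among the 11 tested members whose promoter held the core of the response element, 5 had a log2 fold change above 0 and 6 below, with a median of -0.037, and among the 37 tested members with an entry and no match 28 lay above 0 and 9 below, with a median of 0.064. *Sod1*, at 0.26, was the highest of the 11 and *Gclm*, at -0.17, the lowest. The split rests on letters in the short promoter windows and does not sort NRF2 targets from other genes. *Nqo1* was not among the 11, and *Srxn1* was, with the core after its start.

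*Hmox1* (chromosome 8 from 75820249 to 75827217), the inducible heme oxygenase that degrades heme and is abundant in macrophages that clear red cells, had the lowest log2 fold change of all members, -1.60 (SE 0.69, 95% interval -3.18 to -0.029, unadjusted p of 0.0467 in edgeR, adjusted p 0.999). It came from 1 library. Normalised counts were 129, 813 and 133 in WT and 125, 140 and 89.2 in Pontin cTG libraries, so that WT replicate 2 had several times the level of any other heart and the remaining 5 libraries overlapped. Without WT replicate 2 the log2 fold change was -0.15 (unadjusted p of 0.536 in edgeR). Without WT replicate 1 it was -2.00 and without WT replicate 3 -1.99 (unadjusted p of 0.0155 and 0.0141 in edgeR). It was -1.43 to -1.75 when a Pontin cTG library was left out, with unadjusted p in edgeR of 0.0863, 0.239 and 0.114 without replicates 1, 2 and 3.

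WT replicate 2 was also the library with the most macrophage transcripts. The summed counts of 8 macrophage markers were 3156, 5177 and 3355 in WT and 3612, 3499 and 2471 in Pontin cTG libraries, and 7 of the 8 markers were highest in WT replicate 2. The erythroid sum was not highest there. The part of macrophages in the *Hmox1* value was not tested.

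**Figure D3:**
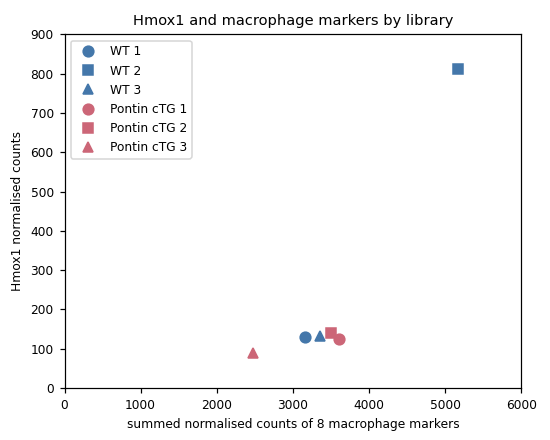
*Hmox1* normalised counts (y axis) against the summed normalised counts of 8 macrophage markers (x axis), 1 point for each library. WT replicate 2, at 813 and 5177, lies apart from the other 5 libraries, which hold 89.2 to 140 counts of *Hmox1*.

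Across libraries the members did not vary as 1 block. Pontin cTG replicate 3 was the highest library for 22 of the 57 tested members (38.6%, against 18.3% of all genes tested), and Pontin cTG replicate 2 for 17 (29.8%, against 30.2%). WT replicate 2 was the lowest library for 16 members (28.1%, against 15.4%). Within groups the median SD of the members was 0.132 in WT and 0.193 in Pontin cTG hearts on the log2 scale, below the 0.166 and 0.265 of all genes. The members were not matched with other genes for level in this comparison, and the part of level was not tested.

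In Pontin cTG replicate 2 members lay at both ends, as genes did at large. It was the lowest library for 21.1% of members and 30.7% of all genes tested, and the highest for shares of members and genes that were alike, as given above. *Cat*, *Sod2*, *Prdx3*, *Txnrd1*, *Txnrd3*, *Gsr*, *Gclm*, *Gstm1* and *Nqo1* were among the 12 members with their lowest value there, and *Sod1*, *Sod3*, *Gpx1*, *Gpx3*, *Gpx4*, *Gpx7*, *Prdx4*, *Prdx5* and *Gss* among the 17 with their highest. The summed endothelial markers were 16724 in that library against 11189 to 13077 in the others. The cardiomyocyte markers went both ways there, with 3 of 8 lowest in that library and 2 highest, and its low cardiomyocyte sum of 786111 came with *Atp2a2*, at 98169 normalised counts against 176515 to 194134 in the others. Over all genes tested, deviations correlated with gene length at Spearman's rho of 0.183, 0.175 and 0.109 in WT libraries. In Pontin cTG libraries rho was 0.0824, -0.205 and -0.157. Over the tested members it was 0.029, 0.00143 and 0.222 in WT and -0.0226, -0.103 and -0.0533 in Pontin cTG libraries. The part of cell types and of gene length in the pattern was not tested. Without Pontin cTG replicate 2, *Cat*, *Sod2*, *Prdx3* and *Txnrd1* had log2 fold changes of 0.13, 0.088, 0.081 and 0.15 in place of values just below 0. With that library left out 7 members passed an unadjusted p of 0.05 in edgeR (*Gpx3*, *Gstk1*, *Gstp1*, *Gstm5*, *Gstt3*, *Prdx5* and *Txnip*), 686 of 13978 genes did (4.91%), and still 0 members passed an adjusted p of 0.05.

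**Figure D4:**
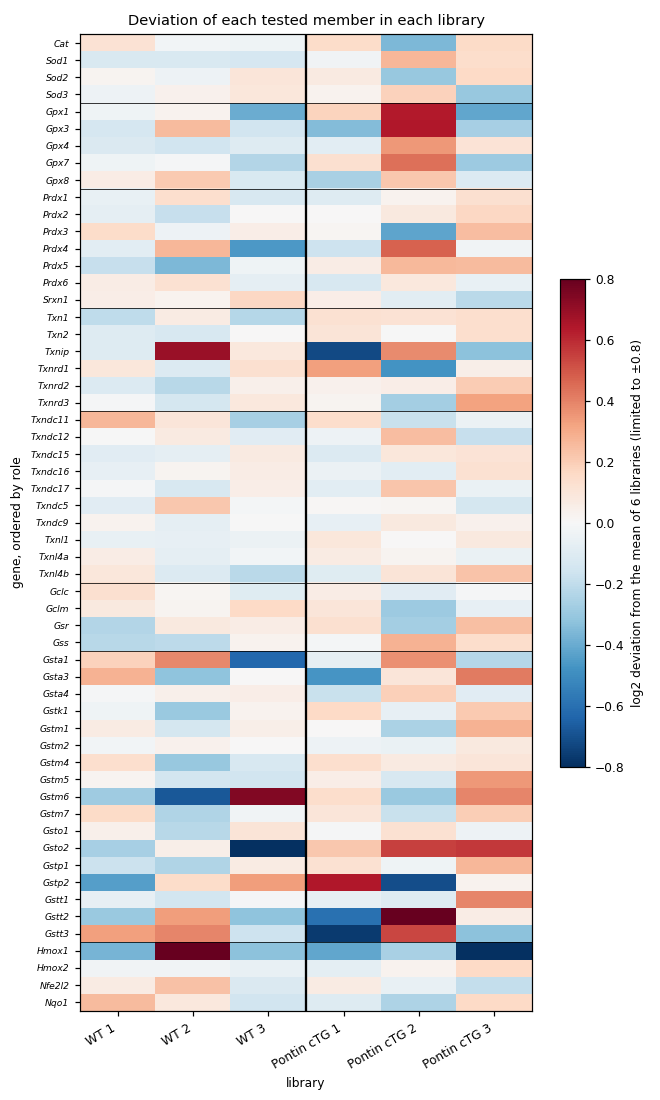
Deviation of each tested member (rows, ordered by role) from its mean over the 6 libraries (columns) on the log2 scale, in colour limited to ±0.8. Red is above and blue below the mean, and the column of Pontin cTG replicate 2 holds both strong red, as for *Gpx1* and *Gpx3*, and strong blue, as for *Prdx3* and *Txnrd1*.

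The wider pathway was followed in 72 further genes chosen for their function, of which 62 were tested, 32 with a log2 fold change above 0 and 30 below, with a median of 0.0013. None passed an adjusted p of 0.05. At an unadjusted p under 0.05 in edgeR there was 1 of the 62 in each direction. Of all genes tested, 1.02% passed with higher and 1.03% with lower counts in Pontin cTG hearts. *Glrx5*, a mitochondrial glutaredoxin of iron-sulfur cluster assembly, had 1038, 874 and 1117 normalised counts in WT and 1195, 1354 and 1288 in Pontin cTG libraries, a log2 fold change of 0.34 (SE 0.14, unadjusted p of 0.0364). Its groups did not overlap. Of the 62 tested related genes, 3 had groups without overlap and higher Pontin cTG values, and 2 had lower ones. Over all genes tested, 4.7% and 3.63% did so.

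*Cybb*, the catalytic subunit of the phagocyte NADPH oxidase and thus a source of superoxide, had 211, 349 and 237 normalised counts in WT and 177, 185 and 178 in Pontin cTG libraries. Every Pontin cTG library lay below every WT library, and the log2 fold change was -0.56 (SE 0.19, unadjusted p of 0.018 in edgeR, adjusted p 0.999). Like *Hmox1* it was highest in WT replicate 2, the library with the most macrophage transcripts. Of the 8 macrophage markers 6 had a log2 fold change below 0 and 2 above, *C1qa* (0.0715) and *C1qb* (0.0371). Each marker had an adjusted p of 0.999 in edgeR, and only *Csf1r* had groups that did not overlap. The unadjusted p in edgeR ran from 0.0484 (*Mrc1*) to 0.247 (*Cd163*) for the markers below 0. It was 0.764 for *C1qa* and 0.882 for *C1qb*. In 7 of the 8 markers WT replicate 2 was the highest library. The part of macrophages in the *Cybb* value was not tested. Over the 11 tested sources of oxidants the median was -0.14, with 4 above 0 and 7 below.

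The 10 regulators of NRF2 were split evenly, 5 above 0 and 5 below. *Keap1*, which marks NRF2 for degradation, had 730, 625 and 809 normalised counts in WT and 790, 550 and 824 in Pontin cTG libraries, a log2 fold change of about 0 (95% interval -0.41 to 0.41). It was named for its role after its values had been seen. *Sqstm1*, which binds KEAP1, and *Nfe2l1*, an NRF2 relative, had the highest levels of the list, with log2 fold changes of 0.14 (SE 0.13) and -0.013 (SE 0.17). Among the 10 genes that supply NADPH, 6 lay above 0 and 4 below, and the most abundant, mitochondrial *Idh2* at 683 RPKM, had a log2 fold change of 0.099 (SE 0.14). *Nnt*, the mitochondrial transhydrogenase that is disrupted in the C57BL/6J strain, had 21.3 to 38.1 normalised counts in all 6 libraries and no difference beyond its spread. It too was named after its values had been seen.

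All 4 tested metallothionein and ferritin genes had log2 fold changes above 0, with a median of 0.30, but the 2 metallothioneins varied widely within the Pontin cTG group. *Mt1* had 1138, 961 and 1305 normalised counts in WT and 2264, 1450 and 902 in Pontin cTG libraries, and *Mt2* had 19.8, 30.3 and 17.9 in WT and 61.5, 31.7 and 8.66 in Pontin cTG libraries. Both were highest in Pontin cTG replicate 1 and lowest in Pontin cTG replicate 3, and their log2 fold changes of 0.44 (95% interval -0.22 to 1.10) and 0.57 (95% interval -0.79 to 1.93) were printed after their values had been seen. The ferritin heavy chain *Fth1*, which stores iron, had 18958, 16870 and 18084 normalised counts in WT and 19656, 18969 and 21669 in Pontin cTG libraries, without overlap, at 0.16 (SE 0.13). The light chain *Ftl1* lay at 0.016 (SE 0.29). Of the glutaredoxins and other glutathione enzymes 6 lay above 0 and 6 below, with the microsomal *Mgst3* (163 RPKM) at 0.22 (SE 0.14). The genes of glutathione precursors and breakdown lay above 0 in 5 of 8, and those of methionine sulfoxide repair with the sestrins in 2 of 7.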

How the data were processed

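RNA from 3 Pontin cTG and 3 WT hearts was sequenced, 1 library for each heart. The authors deposited whole-number counts per gene, not normalised. For these, the labels' processing notes name fastp, HISAT2, featureCounts, DESeq2 and GRCm39, whereas the paper's methods name Trimmomatic, STAR and mm10; whether counting used strand is not given in the sources used here. Gene positions are those of the table and differ from GRCm38 (2 of 67 members have the coordinates of GENCODE M21), so sequences were matched by gene and carry their own build. All 6 libraries were used; the methods mention the removal of an outlier without naming it.

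Counts were filtered with filterByExpr (minimum count 10), scaled by TMM and tested with the robust quasi-likelihood test of edgeR 4.0.16 (R 4.3.3), fitting genotype alone. Normalised counts are counts rescaled to the geometric mean of the effective library sizes. The standard error is the size of the log2 fold change over the square root of F. Alternatives were DESeq2 1.42.0 and limma-voom (limma 3.58.1) with quality weights, other scalings and filters, protein-coding genes only, no mitochondrial genes, the replicate number as a block, and each library left out. Counts were also simulated at these library sizes, with the spread of edgeR's fitted trend alone and no library set apart from the others. Among 13682 genes tested, edgeR called 62 of 100 genes changed 2-fold and 93 of 100 changed 4-fold, with 3 false calls. All pairs of libraries differed by more than sampling noise (chi-square per gene of at least 5.54).

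The members and all gene lists were chosen with earlier results of these data known. Members were named by rule: the highest RPKM in each role, an unadjusted p under 0.05, the 3 largest and 3 smallest log2 fold changes, a list of central enzymes, and groups that do not overlap. Some members outside this rule are named as well, among them *Prdx1*, *Prdx4*, *Hmox2*, *Txndc5*, *Txnl4b*, *Gstp1*, *Gstp2* and *Gsta1*. Related genes were named at an unadjusted p under 0.05 or as the most abundant of their list. Protein sequences were not used here.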

Additional observations from a re-analysis of the deposited data

How the results depend on the processing

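No member passed an adjusted p of 0.05 under any of the 15 alternatives. Over all genes, the number called was 0, and 1 with DESeq2, 3 without a filter on low counts, 3 with limma-voom and 0 to 3 when 1 library was left out. Members at an unadjusted p under 0.05 numbered 2, and 1 with DESeq2, 0 without a filter, 5 with limma-voom and 1 to 7 with a library left out. The share of all genes at that limit moved as well. It was 2.05%, and 0.847% with DESeq2, 1.86% without a filter, 5.83% with limma-voom and 0.847% to 4.91% with a library left out. The members' median of 0.051 ran from 0.014 to 0.071 with a library left out, and was 0.051 over the 33 members that overlap no other gene and 0.043 over the 49 with a mean of at least 100 counts, both chosen after seeing the data. The related genes' median of 0.0013 was 0.037 with library size alone, 0.032 with limma-voom and -0.050 to 0.036 with a library left out. Groups did not overlap in 7 members, against 8.33% of all genes, and in 11 with library size alone. The share of all genes under that scaling is not given here, so the 11 have no background to be read against. The median log2 fold change of all genes was 0.031 there, against 0.0013 in the main setting.

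Of 29 named members, 19 kept their sign throughout. With limma-voom the log2 fold changes of *Gpx3* (-0.16), *Txndc17* (-0.050), *Cat* (0.057), *Sod2* (0.038) and *Txnrd1* (0.11) changed sign, and the cause was not tested. With a library left out the ranges crossed 0 for *Gpx3* (-0.31 to 0.27), *Txndc17* (-0.044 to 0.12), *Cat* (-0.11 to 0.13), *Sod2* (-0.13 to 0.088), *Txnrd1* (-0.23 to 0.15), *Gsr* (-0.034 to 0.21), *Gclc* (-0.076 to 0.032), *Gstm1* (-0.11 to 0.15), *Prdx3* (-0.24 to 0.081) and *Sod3* (-0.16 to 0.078).

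The sources used here do not say whether same-numbered libraries were paired. The correlations of their deviations were 0.0772, 0.432 and 0.193, and 2 of 6 libraries correlated best with their own number. With 3 libraries in each group these values cannot decide it, and the main fit used no pairing. With the replicate number as a block 0 genes were called and 499 passed an unadjusted p of 0.05 in edgeR (3.59%). Among the 499 were 2 of the 57 tested members, *Prdx5* and *Txnip*. In the simulation edgeR called 62 of 100 changes of 2-fold. The simulated counts had no library standing apart as Pontin cTG replicate 2 did, so that rate need not hold for these libraries. Most differences given here are smaller than 2-fold.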
